A study of Drosophila melanogaster with 12 samples.

Results

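The response of *G9a* mutant flies to the first 6 h of paraquat feeding was measured in 4 of the 12 RNA-seq libraries of the series, 2 from mutants at 0 h and 2 from mutants at 6 h, and was compared over 10530 of the 15682 genes in the count table. The libraries were picked by genotype and time point as labelled, and genes were kept where their mean over the 12 libraries was at least 10 normalized counts. Mutants carried *G9a* DD1, a null allele made by P-element excision, and controls had the same background, with the P element removed precisely. All flies were males aged 5 to 9 days, held at 25 °C with 12 h of light and 12 h of dark. At 0 h they had received no treatment, and the 6 h and 12 h groups had been on food with 50 mM paraquat for that long. Each library holds RNA from a pool of 200 whole heads, and each combination of genotype and time was sequenced in duplicate. A head contains brain, eyes, antennae, fat body, muscle and cuticle, so fewer cells of a type and less RNA per cell cannot be told apart here. No library was made from flies kept without paraquat for 6 h. Paraquat, the hour of the day, handling and the change of food therefore cannot be told apart in the comparison of 6 h with 0 h, in mutants or in controls.

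G9a is a histone methyltransferase that places methyl groups on lysine 9 of histone H3, a mark linked to reduced transcription. Paraquat is a herbicide that takes electrons from the respiratory chain and other reductases and passes them to oxygen, which makes superoxide inside cells. Insect cells are known to answer such oxidative stress with conjugating enzymes that detoxify reactive compounds, enzymes that remove peroxides, renewal of damaged proteins by the proteasome, JNK signalling, and release of stored fuel from the fat body.

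Read depth differed between the time points. The mutant 0 h libraries held 40883182 and 37297419 reads on genes and the mutant 6 h libraries 20716253 and 24253605. *G9a* itself had 3553 and 3549 normalized counts in the mutants at 0 h and 3519 and 3603 at 6 h, against 2740.1 and 3087 at 0 h and 2764 and 2620.4 at 6 h in controls. The count covers the whole gene and not the excised part alone, so it does not check the genotype labels. Markers of neurons, photoreceptors, glia and muscle were abundant in all 4 mutant libraries. The summed count of 5 accessory gland markers lay between 3.77 and 7.2 and that of 6 gut protease markers between 7.49 and 9.36, so RNA from these organs of the body was close to absent. The sums were higher for 8 testis markers (86.1 to 115.9) and 5 ovary markers (25.9 to 35.2).

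At 6 h, 848 genes had higher and 547 had lower counts than at 0 h in the mutants. A gene was called where it moved by 1.5-fold or more and limma's p, adjusted over all genes tested by the method of Benjamini and Hochberg, was 0.05 or less. These are 8.05% and 5.19% of the genes tested, and they are the shares against which the counts of each gene list are read below. The median log2 fold change was 1.11 among the genes that rose and -0.97 among those that fell, and -0.0066 over all genes tested. A change of at least 4-fold was found for 132 genes that rose and 49 that fell. All log2 fold changes are on the scale of log2(normalized count + 1), which understates the change of genes with low counts, and errors are standard errors of the model, with 2 libraries in each group.

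**Figure D1:**
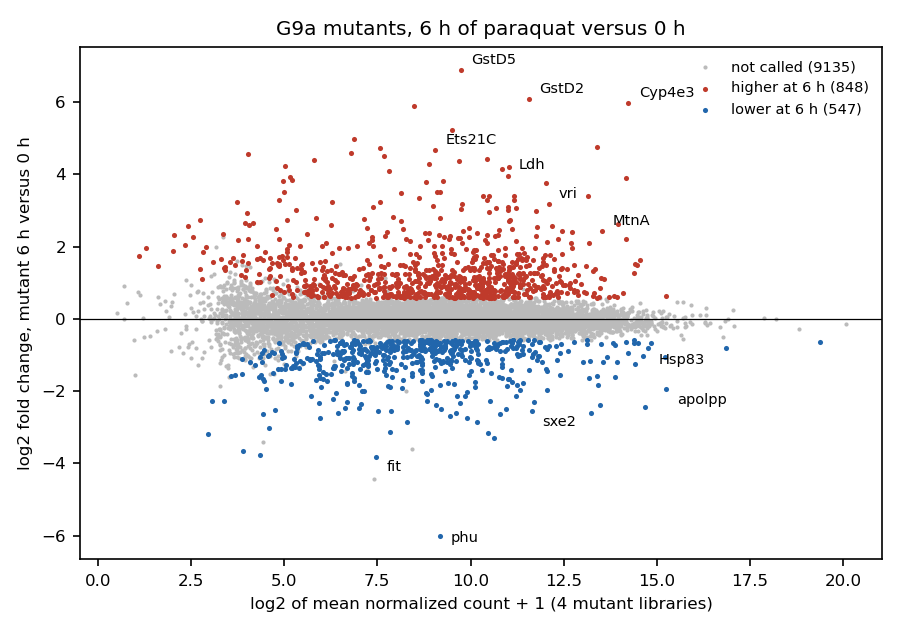
Log2 fold change of mutants at 6 h against 0 h (vertical axis) plotted against the log2 mean normalized count of the 4 mutant libraries (horizontal axis), 1 point per gene for 10530 genes. Red points are the 848 genes that rose and blue points the 547 that fell, with *GstD5* at the top (6.88) and *phu* at the bottom (-6.005).

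The glutathione S-transferases, which couple glutathione to reactive compounds, included the gene with the largest rise of all those named, *GstD5*. Of 35 tested, 19 rose and none fell, with a median log2 fold change of 1.07. *GstD5* had 15.5 and 11.5 normalized counts in the 2 libraries at 0 h and 1847 and 1556 at 6 h. *GstD2* went from 67.3 and 112 to 6054 and 5902, and *GstD4* from 4.53 and 8.64 to 226 and 229.9. For each of the 3 the lowest 6 h library was far above the highest 0 h library, and the log2 fold changes were 6.88 ± 0.23, 6.09 ± 0.17 and 4.97 ± 0.28 (adjusted p = 2.7e-09, 1e-09 and 1.1e-07). *GstD1*, the most studied member and a marker of oxidative stress signalling, rose from 4253 and 4702 to 28888 and 25975 (log2 fold change 2.61 ± 0.089, adjusted p = 2.7e-09). Among the *GstE* genes, *GstE1* rose from 525 and 612 to 8264 and 7152 and *GstE7* from 159.9 and 237 to 3915 and 3048. Their log2 fold changes were 3.76 ± 0.13 and 4.14 ± 0.20 (adjusted p = 2.7e-09 and 2.6e-08). The rise was spread unevenly over the family: 8 of 10 *GstD* genes and 8 of 13 *GstE* genes rose, *GstE2* had 624 and 640.0 counts at 0 h and 681 and 535 at 6 h, and none of the zeta genes was called. The *GstD* genes are similar to each other in sequence, so 30 bp reads may have been shared between them.

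Among cytochrome P450 genes, whose products oxidize lipids, hormones and foreign compounds, 26 of 77 rose and 10 fell (median 0.22). *Cyp4e3* changed most, from 505 and 731 to 37833 and 38080.3 normalized counts, a 62.4-fold rise (log2 fold change 5.96 ± 0.16, adjusted p = 1e-09). *Cyp309a1* rose from 188 and 245 to 4128 and 3834 and *Cyp6d2* from 84.2 and 90.7 to 1051 and 968, with log2 fold changes of 4.21 and 3.51. *Cyp12d1-d* went from 44.7 and 46.8 to 547 and 492, but it has a near-identical copy, *Cyp12d1-p*, and the reads of the pair may have been split between them. The family moved both ways: *Cyp4d21*, a male-enriched member named here after its values were seen, fell from 2985 and 3753 to 719 and 481 (log2 fold change -2.51). UDP-glycosyltransferases, which attach sugars to small molecules, were also split, with 10 of 25 higher and 5 lower. *Ugt37A3* rose from 25.9 and 52.5 to 1458 and 1385 (log2 fold change 5.23 ± 0.32) and *Ugt49C1* from 1529 and 1615 to 6771 and 6949 (2.13), while *Ugt50B3* fell from 286 and 348 to 112 and 104 (-1.54). *Ugt37A2* was near the detection limit at 0 h (1.29 and 3.6) and had 65.4 and 55.6 at 6 h (4.24).

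**Figure D2:**
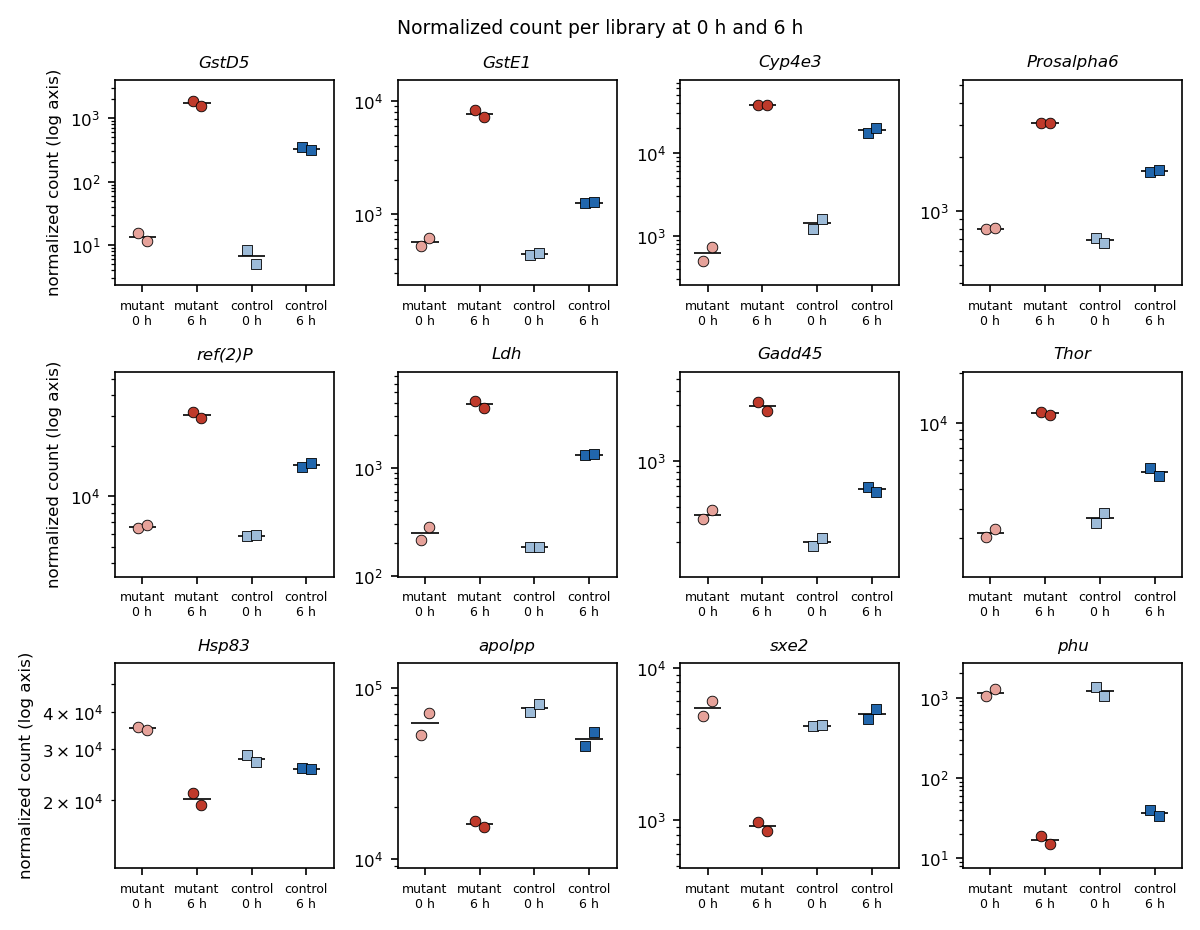
Normalized count of 12 genes in each library (vertical log axes), with 2 points and a line for the mean in mutants at 0 h and 6 h (circles) and in controls at 0 h and 6 h (squares). In mutants the points at 6 h lie above those at 0 h for the first 8 genes and below them for *Hsp83*, *apolpp*, *sxe2* and *phu*, while *Hsp83* and *sxe2* show no called change in controls.

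Enzymes that remove reactive oxygen species rose in part. Of 15 tested, 7 rose and none fell. They were not the superoxide dismutases: *Sod1* had 6808 and 7207 counts at 0 h and 7086 and 6709 at 6 h, *Sod2* 3253 and 3164 at 0 h and 2768 and 2769 at 6 h, and the extracellular *Sod3* 1636 and 1779.5 at 0 h and 1285 and 1115 at 6 h (log2 fold change -0.51, adjusted p = 0.00041, under the fold threshold except without the first 6 h library, where its log2 fold change was -0.61). The members that rose were catalases, peroxidases and peroxiredoxins, which act on peroxides, and the thioredoxin reductase *Trxr1* (4719 and 4352 to 10989.6 and 10244, 1.23). Catalase, *Cat*, rose from 4006 and 4628 to 8890.3 and 8388 (log2 fold change 1.00 ± 0.08, adjusted p = 1.7e-06) and the immune-regulated catalase *Irc* from 1496 and 1682 to 4586 and 4421 (1.505 ± 0.069). The glutathione peroxidase homologue *Gtpx* rose from 2299.8 and 2348 to 7706 and 7038 (1.66 ± 0.072). The peroxiredoxins *Prx6b* and *Prx6c* rose from 201 and 289 to 1123 and 1134 and from 173 and 212 to 934 and 977 (2.22 and 2.31), though this pair is similar in sequence and may share reads. *Prx6a* had 185 and 200.1 counts at 0 h and 225 and 214 at 6 h and was not called.

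The cnc pathway joins the transcription factor Cnc, its inhibitor Keap1 and the genes of glutathione synthesis that Cnc activates. Both subunits of the enzyme that sets the rate of glutathione synthesis rose, *Gclc* from 2652 and 2821 to 5196 and 5055 (log2 fold change 0.91 ± 0.051) and *Gclm* from 1178 and 1294 to 4182 and 3783 (1.69 ± 0.10). *ref(2)P*, the fly p62 that brings ubiquitinated cargo to autophagy, rose from 6464 and 6718 to 31766 and 29068 (2.20 ± 0.069, adjusted p = 1.9e-09). Messenger RNA of the regulators moved little: *cnc* had 4370.4 and 4696 counts at 0 h and 6424 and 6077 at 6 h (0.46) and *Keap1* 704 and 705 at 0 h and 1031 and 1069 at 6 h (0.58), both with an adjusted p under 0.05 but a fold change under 1.5. *Keap1* passed the fold threshold without the first 6 h library (0.60). Of the 11 genes of this list 3 rose and 2 fell, and the 2 that fell are the NADPH-making enzymes of the pentose phosphate pathway, *Zw* (593 and 597 to 402 and 371, -0.62) and *Pgd* (1226 and 1454 to 916 and 751, -0.69). Both were close to the fold threshold. *Pgd* was under it without the second 0 h library (-0.56) or the second 6 h library (-0.54), and *Zw* without the second 6 h library (-0.56).

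Metal-binding genes rose without exception where they were called, 5 of 13. *MtnA*, a metallothionein, rose from 3417 and 4051 to 20593 and 19420.3 (log2 fold change 2.43 ± 0.09, adjusted p = 4.8e-09) and *MtnD* from 20.7 and 27.4 to 421 and 431 (4.10 ± 0.31). *Fer1HCH*, the heavy chain of ferritin, which stores iron, rose from 11496 and 12215 to 33683 and 32338 (1.48). In the BDGP 6 annotation it overlaps *Fer2LCH*, the light chain, on the opposite strand, and the library kit does not keep strand, so the counts of the pair may share reads.

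Subunits of the proteasome, the complex that degrades ubiquitinated proteins, moved as a block. All 32 tested were called higher, which is 100% against 8.05% of all genes, with log2 fold changes from 0.64 to 1.95 and a median of 1.23. *Prosalpha6*, of the core particle, rose from 792 and 806 to 3098 and 3094 (1.95 ± 0.077, adjusted p = 7e-09). *Prosalpha3* rose from 1100.0 and 1154 to 3413 and 3244 (1.56) and *Prosbeta7* from 1215 and 1246 to 3608 and 3514 (1.53). By contrast none of 19 autophagy genes was called in either direction by limma, edgeR or DESeq2 (median 0.12), and an unadjusted limma p under 0.05 was found for 9 with a log2 fold change above 0 and 1 below, against 21.5% and 22.2% of all genes.

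Of 24 heat shock proteins and co-chaperones, 4 rose and 1 fell, and the 4 were all small heat shock proteins, which hold unfolding proteins without using ATP. *l(2)efl* rose from 884 and 878 to 4014 and 3781 (log2 fold change 2.14 ± 0.11), *Hsp26* from 560.1 and 588 to 1767 and 1305 (1.402), *Hsp23* from 456 and 472 to 1016 and 835 (0.99) and *Hsp27* from 138 and 147 to 305 and 228 (0.89, adjusted p = 0.031). *Hsp27* was not called, with an adjusted p of 0.12, 0.084 and 0.20 when the first 0 h, the second 0 h or the first 6 h library was left out. *Hsp83*, the fly Hsp90, was the one that fell, from 35779 and 34886 to 21234 and 19348 (-0.80 ± 0.08, adjusted p = 1.2e-05). The inducible *Hsp68* had 572 and 595 counts at 0 h and 930.3 and 778 at 6 h and was not called (adjusted p = 0.17). The 6 *Hsp70* genes, whose near-identical copies cannot be told apart with 30 bp reads, had log2 fold changes of 0.055 to 0.26 and none was called, whereas between 6 h and 12 h in the mutants their log2 fold changes were 2.42 to 2.76. *Hsp22* is listed at 0 in these 4 libraries, and it shares exon sequence with *CG4456* in the BDGP 6 annotation. Subunits of the CCT chaperonin, which folds actin and tubulin, all had positive log2 fold changes, from 0.23 to 0.74, and 3 of 7 (*CCT1*, *CCT3* and *CCT5*) were called, or 1 of 7 without the first 6 h library.

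Genes of the unfolded protein and integrated stress responses, which lower translation and raise repair when proteins misfold or amino acids run short, were called higher in 8 of 17 cases and lower in 2. *Thor*, the translation inhibitor 4E-BP, rose from 2045 and 2285 to 11712 and 11193 (log2 fold change 2.40 ± 0.074, adjusted p = 1.8e-09), and the transcription factor *Xrp1* rose from 11401 and 11799 to 37706 and 34715 (1.64 ± 0.06). The endoplasmic reticulum sensor *Ire1* and its target *Xbp1* rose from 2486 and 2493 to 4703 and 4469.9 (0.88) and from 8076 and 8077 to 15226 and 14152 (0.86). The chaperones inside the same compartment went the other way: *Hsc70-3*, the fly BiP, fell from 10712 and 10849 to 7300.0 and 7057 (-0.59) and *Gp93* from 2984 and 3044 to 1991 and 1852 (-0.65). *Hsc70-3* was under the fold threshold without the second 0 h or the second 6 h library (-0.58 and -0.56). *crc*, the fly ATF4, had 27195 and 28932 counts at 0 h and 32807 and 31751 at 6 h and was not called. Cytosolic aminoacyl-tRNA synthetases, which load tRNAs with amino acids, rose in 7 of 19 cases and fell in none. *AspRS* led them, from 1129 and 1212 to 6019 and 5491 (2.30 ± 0.084), though part of its exons is shared with other annotated genes. *AlaRS* rose from 973 and 916 to 2461 and 2323 (1.34) and *AsnRS* from 1656 and 1523 to 3996 and 3694 (1.27).

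In the JNK pathway, a kinase cascade that answers oxidative stress and wounding, 5 of 12 genes rose and none fell. *Ets21C*, an ETS transcription factor induced by JNK, rose from 37.5 and 41.0 to 1066 and 974 (log2 fold change 4.66 ± 0.17, adjusted p = 4.3e-09). *Gadd45*, a stress-induced activator of the cascade, rose from 314 and 375 to 3160.4 and 2681 (3.08 ± 0.13), and *puc*, the phosphatase that JNK induces as its own brake, from 1719 and 1795 to 3309 and 3367 (0.93 ± 0.069). The filamin gene *cher*, counted with the targets of the pathway, rose from 2496 and 2502 to 9081 and 8213 (1.79). Of 12 cell death genes only the initiator caspase *Dronc* (338 and 372 to 578 and 565, 0.69) and *p53* (273 and 294 to 412 and 446, 0.60) were called, and *p53* was under the fold threshold without the first 0 h or the second 6 h library (0.54 and 0.54) and with TMM scaling or median centring (0.58 and 0.55). The death activators *rpr*, *hid*, *grim* and *skl* were not, with log2 fold changes of 0.21, -0.13, -0.14 and -0.16.

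JAK-STAT ligands rose from a few counts. *upd3* had 3.24 and 3.6 counts at 0 h and 74.2 and 58.8 at 6 h (log2 fold change 3.92 ± 0.47, adjusted p = 5.3e-05), and *upd2* had 2.59 and 3.6 at 0 h and 70.4 and 44.9 at 6 h (3.82 ± 0.52). *Socs36E*, a feedback inhibitor and common readout of the pathway, rose from 1538 and 1427 to 3507 and 3483 (1.24 ± 0.065, adjusted p = 5.3e-08). The Turandot genes, which encode secreted stress proteins that the pathway induces in fat body, held no member that was called higher: *TotA* had 1148 and 1848 counts at 0 h and 1395 and 1306 at 6 h (adjusted p = 0.84), and *TotX* fell from 418 and 596 to 207 and 148 (-1.51). Antimicrobial peptides, the main effectors of the Toll and Imd immune pathways, had a median log2 fold change of -0.68, and of 13 tested none rose and 1, *Drsl4*, fell (94.5 and 130.3 to 85.5 and 62.0, -0.60). The peptide gene *Drs* matched no identifier and is not among the 13. The *Drsl4* call did not hold without the second 0 h library (adjusted p = 0.27), without the second 6 h library (0.27) or without any one of 4 control libraries (0.051 to 0.054). The 2 libraries at 6 h disagreed on 2 peptides of the Imd pathway. *Dro* had 256 and 12.8 counts in them against 159.9 and 159 at 0 h, and *DptA* 146 and 11.8 against 104 and 132, so no direction can be read for these. Among 10 peptidoglycan recognition proteins, which detect bacteria, *PGRP-SA* of the Toll pathway rose from 91.9 and 124 to 556 and 449 (2.22). *PGRP-SB1* fell from 358 and 451 to 77.9 and 25.7 (-3.13 ± 0.48, adjusted p = 0.00036) and *PGRP-SD* from 241 and 298 to 142 and 127 (-0.99).

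*Ldh*, lactate dehydrogenase, rose from 215 and 281 to 4155 and 3568 normalized counts, a 15.6-fold change (log2 fold change 3.96 ± 0.13, adjusted p = 2.7e-09), and was the only one of 16 genes of glycolysis and hypoxia that rose. *Gpdh1*, glycerol-3-phosphate dehydrogenase, was the only one that fell (15972 and 18986 to 8528 and 8379, -1.04). *sima*, *Hph* and *PyK*, also chosen for this list, matched no identifier and were left out of it. *Glyp*, glycogen phosphorylase, had 12348 and 11798 counts at 0 h and 12362 and 11434 at 6 h and was not called, while *Tps1*, which makes trehalose, the sugar of fly blood, fell from 5635 and 6934 to 3783 and 3630.4 (-0.75).

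Triglyceride genes were called in both directions, 5 of 22 higher and 5 lower. *bmm*, the lipase that opens fat stores, rose from 1261 and 1364 to 4195 and 4136 (log2 fold change 1.67 ± 0.068, adjusted p = 9.1e-09), and the lipase gene *Lip4* from 682 and 824 to 2475 and 2300.2 (1.67). Of the 2 enzymes of the last step of triglyceride synthesis, *mdy* fell from 982 and 1354 to 336 and 321 (-1.81 ± 0.12) and *Dgat2* rose from 57.6 and 97.2 to 1646 and 1482 (4.36 ± 0.19). *ACC*, which makes the building block of fatty acids, and the desaturase *Desat1* also fell, from 15424 and 16520.4 to 5396 and 5315 (-1.58) and from 26161 and 35763 to 12768 and 12848 (-1.26), both named after their values were seen. In beta oxidation, which burns fatty acids, 1 of 16 genes rose and 3 fell. *hll*, *Etf-QO* and *Had1*, also chosen for this list, matched no identifier and were left out of it. *yip2*, a thiolase, rose from 1760.5 and 2169.7 to 6018 and 5701 (1.58), and *bgm*, a very-long-chain acyl-CoA synthetase, fell from 1110.4 and 1312 to 194 and 183 (-2.68 ± 0.12, adjusted p = 2e-08). *ImpL2*, which binds and blocks insulin-like peptides, rose from 1711 and 1977 to 6460.3 and 6066 (1.77), and *foxo* had 1765 and 1879.6 counts at 0 h and 1273 and 1294 at 6 h and was not called.

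Of 10 genes for secreted products of the head fat body, many of them rhythmic, 5 fell and 1 rose, with a median of -1.16. *apolpp*, the main lipoprotein of fly blood, fell from 53087 and 71083 to 16497 and 15232 (log2 fold change -1.95 ± 0.13, adjusted p = 4.4e-07). *sxe2*, a lipase-like gene, fell from 4836 and 6071 to 981 and 858 (-2.56 ± 0.11), and *fit*, a satiety signal of the fat body, from 232 and 425 to 32.7 and 13.9 (-3.81 ± 0.56, adjusted p = 0.00025). *Apoltp*, a lipid transfer particle made by the same tissue, rose from 3261 and 4143 to 10702 and 9849.7 (1.48 ± 0.10). Of 4 fat body markers in the table (*Lsp2*, *apolpp*, *Apoltp* and *Desat1*) 3 fell and 1 rose, and their summed count was 98261 and 128776 at 0 h and 47516 and 45122 at 6 h. The share of these changes that reflects fat body RNA as a whole was not tested.

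**Figure D3:**
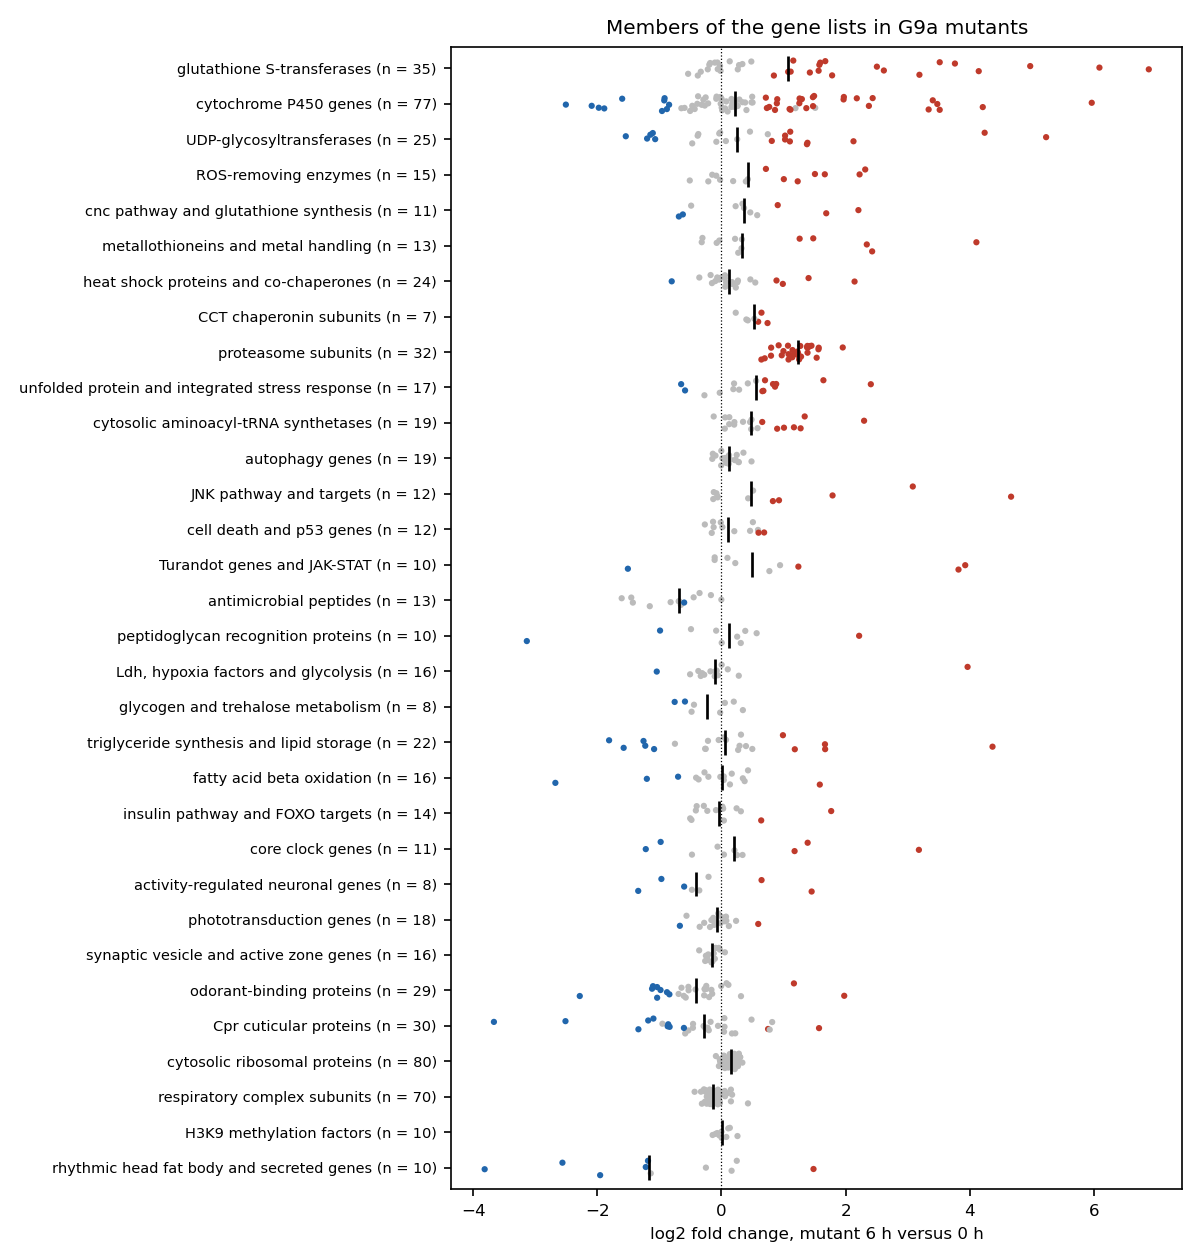
Log2 fold change of mutants at 6 h against 0 h (horizontal axis) for each tested member of 32 gene lists (rows), with called genes in red (higher) or blue (lower) and others in grey. Black bars mark list medians and the dotted line the median of all genes tested (-0.0066); the proteasome row is red throughout, and the ribosomal, respiratory, synaptic, autophagy and H3K9 rows hold no called gene.

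Of 11 clock genes 3 rose and 2 fell, or 1 fell without the second 6 h library. *vri*, a repressor within the clock, rose from 842 and 894 to 7976 and 7759 (log2 fold change 3.18 ± 0.056, adjusted p = 4.1e-11). *tim* rose from 5506 and 5900.1 to 15724 and 14142 (1.39 ± 0.066) and *per* from 1314 and 1330.3 to 3118 and 2870.1 (1.18 ± 0.06). Both encode proteins that close the daily feedback loop on the activator Clk. *Clk* itself fell from 1583 and 1553 to 791 and 799 (-0.98 ± 0.11), and *to*, a rhythmic feeding gene, fell from 1526 and 1729.8 to 988 and 492 (-1.22 ± 0.29, adjusted p = 0.0068, or 0.066 without the second 6 h library). By 12 h the log2 fold changes against 6 h were a further 1.27 for *per*, 2.03 for *tim* and -2.76 for *Clk*. In controls *per*, *tim* and *vri* also rose by 6 h (0.79, 1.46 and 1.91). Since these genes cycle with the time of day, the contribution of paraquat to them cannot be told apart from that of the hour. Between the genotypes at the same hours on paraquat, *vri* rose more in mutants (difference 1.27 ± 0.079, adjusted p = 3.7e-06). For *per* and *tim* the difference was 0.39 and -0.072 and was not called. The labels do not say whether both genotypes were collected at the same hour of the day, so these differences may hold a part of it. *to* started at 1526 and 1729.8 counts in mutants against 43742 and 36033 in controls, and fell less in mutants (difference 1.62 ± 0.41, adjusted p = 0.023). That difference was lost without any one of 4 libraries, with an adjusted p of 0.063 without the first mutant library at 6 h and 0.072 without the first at 0 h, and 0.069 and 0.074 without the first control libraries at 0 h and 6 h.

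**Figure D4:**
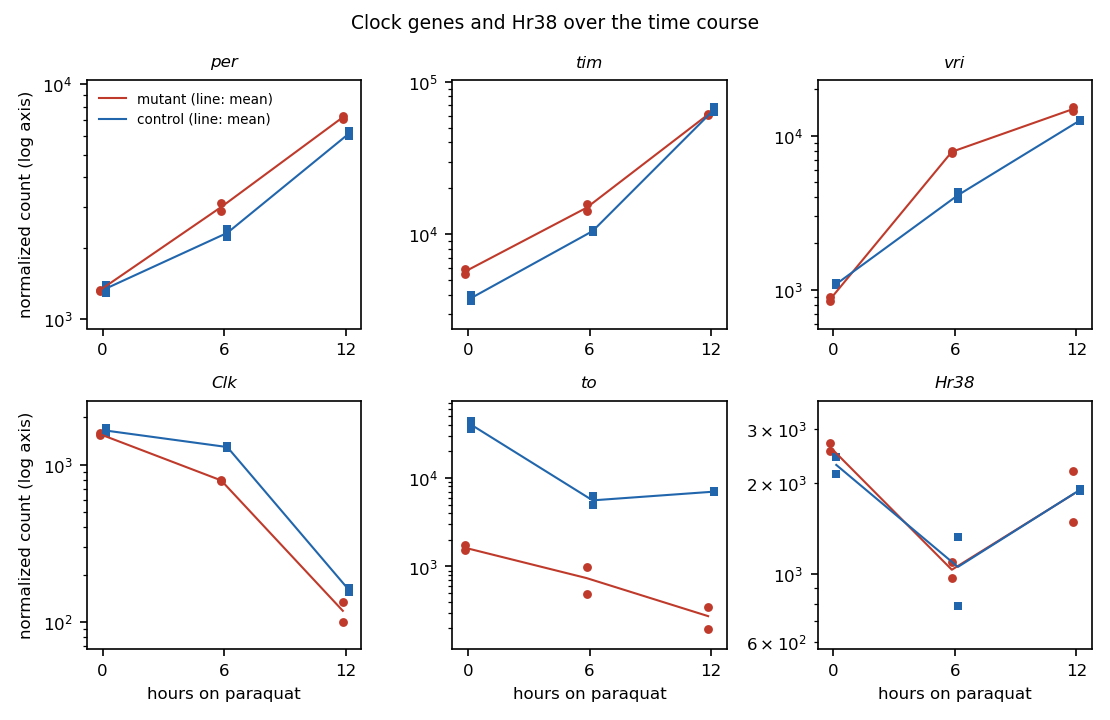
Normalized count (vertical log axes) of 5 clock genes and *Hr38* at 0, 6 and 12 h on paraquat (horizontal axes), with 2 points per time and a line through the means for mutants (red circles) and controls (blue squares). *per*, *tim* and *vri* climb and *Clk* drops in both genotypes, *to* starts far lower in mutants, and *Hr38* dips at 6 h.

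Genes that follow neuronal activity moved both ways, 2 of 8 higher and 3 lower, with 1 higher without the first 0 h or the first 6 h library. *Hr38* fell from 2546 and 2698 to 970.5 and 1101 (log2 fold change -1.34 ± 0.21) and *sr* from 1132 and 1127 to 568 and 586 (-0.97). *hry*, the repressor hairy, rose from 761 and 837 to 2294 and 2082 (1.45 ± 0.11). None of 80 cytosolic ribosomal protein genes, 70 nuclear respiratory complex genes, 16 synaptic genes or 10 genes of H3K9 methylation was called, and their medians were 0.15, -0.14, -0.15 and 0.0018. edgeR and DESeq2 also called none of them. The unadjusted limma p was under 0.05 for 46 ribosomal genes, all with a log2 fold change above 0, for 36 respiratory and 10 synaptic genes, all below 0, and for none of the H3K9 genes, where all genes tested had 21.5% above and 22.2% below 0. In the eye, 1 of 18 phototransduction genes rose, the blue-sensitive opsin *Rh5* (8754 and 12829.6 to 16507 and 15451, 0.59), and 1 fell, the scaffold *inaD* (25549 and 26587 to 16341 and 16411, -0.67). *Rh5* was at the fold threshold and was not called without the first 0 h or the first 6 h library (0.32 and 0.54), nor with edgeR or DESeq2, TMM scaling (0.58) or median centring (0.54). No marker of neurons, glia or muscle was called by limma, and 3 of 4, 4 of 5 and 2 of 4 of them had an unadjusted p under 0.05, which 4605 of the 10530 genes tested also had. Among 5 hemocyte markers *Hml*, a clotting protein, went from 276 and 338 to 220.0 and 133 (-0.84) and the phagocytosis receptor *eater* from 16.8 and 20.9 to 8.8 and 7.49 (-1.12), and each lost its call without the second library at 0 h (adjusted p = 0.066 and 0.12) or at 6 h (0.069 and 0.086). *NimC1*, another phagocytosis receptor, rose from 31.7 and 29.5 to 70.4 and 48.1 (0.91) in mutants and fell from 161 and 140.4 to 69.0 and 72.0 in controls (-1.08, difference 1.99 ± 0.27).

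Odorant-binding proteins carry smells and tastes to receptors, and Cpr proteins bind the chitin of the cuticle. Of 29 odorant-binding proteins 8 fell and 2 rose, and of 30 Cpr cuticular proteins 9 fell and 2 rose, against 5.19% lower and 8.05% higher of all genes. Without the second 6 h library the odorant-binding genes that fell were 5. *Obp56h* fell from 156 and 165 to 72.9 and 73.8 (log2 fold change -1.12 ± 0.13), and *Obp99b* rose from 454 and 579.5 to 1141 and 1163 (1.17). *Cpr56F* fell from 736 and 786 to 293 and 308 (-1.34) and *Cpr76Bc* from 53.7 and 36.0 to 8.8 and 5.35 (-2.51). *Cpr11A* had 78 reads in the 2 libraries at 0 h and 2 at 6 h, a ratio of 23.0 after scaling (exact 95% interval 6.16 to 193, counting error only). Of 5 antennal markers 1 was called lower in the mutants (*lush*, 531 and 513 to 292 and 349.7, -0.71), with an adjusted p of 0.073, 0.053 and 0.11 without the first 0 h, the second 0 h or the first 6 h library, and the 5 summed to 18665 and 17934 at 0 h and 15239 and 15125 at 6 h.

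Among the genes with the largest changes several belong to none of these lists. *CG33301* rose from 9.71 and 12.24 to 808 and 611 (log2 fold change 5.88 ± 0.27) and *CG16898* from 596 and 978 to 22065 and 19614 (4.77 ± 0.21). *Sid*, a stress-induced DNase, rose from 10.4 and 15.8 to 419 and 318 (4.72 ± 0.23, adjusted p = 2.9e-08). *CG5697*, *CG4269* and *CG43402* rose with log2 fold changes of 4.59, 4.51 and 4.41. Of the genes that fell, *phu*, an alkaline phosphatase, changed most, from 1031 and 1266 to 18.9 and 14.97, a 64.2-fold loss (-6.005 ± 0.30, adjusted p = 4.2e-08). *dsb*, a scavenger receptor of the CD36 class, fell from 2768 and 3362 to 484 and 491 (-2.64 ± 0.10), and the adult cuticle gene *Acp1* from 86.8 and 127 to 10.1 and 21.4 (-2.75 ± 0.36). The others in the lowest 12 were *CG2736* (-3.30), *CG13607* (-3.17), *CG8665* (-2.85), *CG34134* (-2.85), *CG15096* (-2.74) and *CG17108* (-2.62).

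The control flies also spent 6 h on paraquat, and the difference between the 2 responses was tested within the same fit. In controls 598 genes rose and 168 fell (480 and 256 with each library centred on its median), 5.68% and 1.6% of those tested. Of the 848 genes that rose in mutants 332 also rose in controls, which is 39.2% of the mutant list and 55.5% of the control list. Of the 547 that fell in mutants 118 fell in controls, 21.6% of the mutant list and 70.2% of the control list. A further 37 genes were called in opposite directions. The change itself differed for 862 genes, in 369 of which (3.5%) the mutant log2 fold change was the higher and in 493 (4.68%) the lower.

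Several of the stress genes above rose in both genotypes and rose more in mutants. *GstE1* rose in controls from 436 and 452 to 1249 and 1268 (log2 fold change 1.501), against 3.76 in mutants, a difference of 2.26 ± 0.18 (adjusted p = 1.8e-05). The difference was 2.24 ± 0.23 for *Cyp4e3*, 1.57 ± 0.19 for *Gadd45*, 1.49 ± 0.10 for *Thor* and 1.14 ± 0.19 for *Ldh*, and each was called. For other stress genes no difference was called: *Cat* rose by 1.09 in controls and 1.00 in mutants (difference -0.083 ± 0.11, adjusted p = 0.71), and *upd3* by 3.60 and 3.92 (0.32 ± 0.67, adjusted p = 0.82). By list, the difference was called higher for 10 of 35 glutathione S-transferases and lower for 2, against 3.5% and 4.68% of all genes. It was called higher for 5 and lower for none of the 32 proteasome subunits, and in neither direction for the 80 ribosomal proteins. *upd2* had 4.46 and 1.67 counts in controls at 0 h and 2.65 and 4.96 at 6 h, with no call there (difference 3.53 ± 0.74, adjusted p = 0.008, or 0.052 with reads thinned to the smallest library).

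Among genes whose counts averaged 50 or more over the 4 mutant libraries and did not overlap between 0 h and 6 h, the largest called positive differences belonged to *Ama*, a cell adhesion protein of the immunoglobulin family (3.35 ± 0.46), *Ets21C* (3.06 ± 0.24), *Sid* (2.91 ± 0.32), *CG33301* (2.84 ± 0.38) and the serpin *Spn88Eb* (2.56 ± 0.37). *Ama* had 4.53 and 3.6 counts in mutants at 0 h and 99.3 and 112 at 6 h, and 12.8 and 6.69 at 0 h and 18.6 and 22.3 at 6 h in controls. *Spn88Eb* rose from 67.3 and 97.9 to 1105 and 1199 in mutants and from 158 and 148 to 513 and 258 in controls. Of the 5 largest negative differences by the same limits 3 belonged to genes known from the antenna, in which the control libraries at 0 h were the low ones. *Obp83b* had 1707 and 1623 counts in mutants at 0 h and 1190.5 and 1304 at 6 h, with no call, against 142 and 95.3 at 0 h and 1159 and 767 at 6 h in controls (difference -3.42 ± 0.37). For *a10* the 0 h libraries held 168 and 80.3 counts in controls and 1549 and 1219 in mutants (difference -3.35), and for *Os-C* 166 and 86.1 and, in mutants, 1677 and 1543 (-3.32). Neither gene was called within the mutants. For *Cpr56F* the controls were near 0 throughout (3.19 and 2.51 at 0 h and 14.6 and 13.7 at 6 h, difference -3.32). *Acsx2*, an acyl-CoA synthetase homologue, went from 659.8 and 675 to 368 and 387 in mutants and from 93.7 and 68.5 to 552 and 392 in controls (-3.34), and its fall in mutants (-0.82) was lost without any one of the 4 mutant libraries (adjusted p = 0.060 to 0.086). The summed count of the 5 antennal markers in controls was 11824 and 10411 at 0 h and 18681 and 17708 at 6 h, and the part of antennal RNA content in these differences was not tested. Other negative differences came with a fall in mutants and no call in controls. *sxe2* had 4122 and 4182 counts in controls at 0 h and 4583 and 5361 at 6 h (difference -2.82 ± 0.15), and *mdy* had 875 and 813 at 0 h and 715 and 751 at 6 h (difference -1.61 ± 0.17).

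In controls 18 of 35 glutathione S-transferases and 27 of 32 proteasome subunits rose, with median log2 fold changes of 0.66 and 0.80 against 1.07 and 1.23 in mutants. Among cytochrome P450 genes 27 rose and 1 fell in controls, where mutants had 26 and 10, and the difference was called higher for 14 and lower for 11. Genes of the unfolded protein and integrated stress responses rose in 2 of 17 cases in controls and 8 in mutants, with 6 differences called higher and none lower, against 3.5% and 4.68% of all genes. *Thor* went from 2490.2 and 2852 to 5298 and 4776 in controls (0.92), and the kinase *PEK*, which slows translation under stress, had 2212 and 2173 at 0 h and 2451 and 2247 at 6 h in controls and rose from 2179 and 2194 to 3592 and 3519 in mutants (difference 0.60 ± 0.087, or 0.54 and under the fold threshold without the second control library at 6 h). For the 13 antimicrobial peptides the median was 1.06 in controls and -0.68 in mutants, and 2 differences were called, both lower. The mutant 6 h libraries disagreed, with summed counts of 4096 and 2609 over the 18 peptides in the table, after 3845 and 4615 at 0 h. Controls started lower, at 1974 and 1812, and had 6185 and 5082 at 6 h. Of the 2 called differences, that of *Drsl4* was lost without the second mutant library at 6 h (-1.04) or at 0 h (-1.04). It was also lost without the second control library at 0 h (-1.12). In each case the limit on the adjusted p was missed and the fold threshold was met. Cpr cuticular genes had 6 higher and 1 lower in controls, against 2 and 9 in mutants, and 9 of 30 differences were called lower and none higher.

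Fuel genes were among those with called differences. In the triglyceride list 6 of 22 differences were called higher and 3 lower, against 3.5% and 4.68% of all genes. *Lsd-1*, a coat protein of lipid droplets, rose from 2875 and 3698 to 7935 and 6888 in mutants (1.18) and had 4455 and 3589 at 0 h and 2509 and 2967 at 6 h in controls, with a difference of 1.73 ± 0.21 (adjusted p = 0.00021). *bmm* rose from 1580.4 and 1629 to 3264 and 2984 in controls and more in mutants (difference 0.71 ± 0.10). *Ldh* rose from 183 and 186 to 1305 and 1328 in controls. The fat body markers summed to 141029 and 148958 in controls at 0 h and 91125 and 112431 at 6 h, and their part in these differences was not tested.

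At 12 h the mutants had been on paraquat for as long again, and 467 genes were higher and 494 lower than at 6 h (4.43% and 4.69%). The values below share the 6 h libraries with those above and are given as levels. *Ldh* had 21512 and 26061 normalized counts at 12 h after 4155 and 3568 at 6 h (log2 fold change 2.62) and *Thor* 25531 and 26307 after 11712 and 11193 (1.18). *GstD5* had 1789 and 1906 with no call (adjusted p = 0.75), and the 32 proteasome subunits had a median log2 fold change of 0.20 between 6 h and 12 h, from -0.064 to 0.43. Among heat shock proteins and co-chaperones 11 of 24 were called higher and none lower in that interval, where 4 had risen by 6 h. *Hsp68* reached 3111 and 5359.6 at 12 h, against 930.3 and 778 at 6 h (2.26), while *Hsp83* had 23220.1 and 28356 (0.34, not called). *apolpp* fell further, to 5917 and 7048 (-1.30), and *phu* had 28.1 and 62.6 after 18.9 and 14.97 (1.27).

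**Figure D5:**
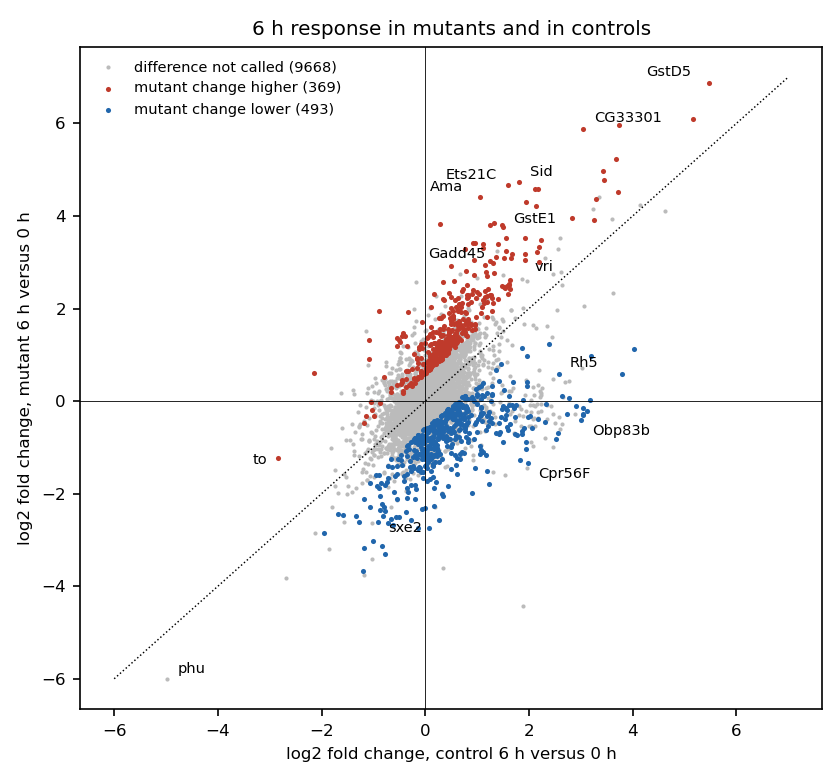
Log2 fold change from 0 h to 6 h in mutants (vertical axis) against that in controls (horizontal axis), 1 point per gene, with equality as the dotted line. Red points are the 369 genes whose change was higher and blue points the 493 whose change was lower in mutants, and *Obp83b* lies far to the right near a mutant value of -0.42.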

How the data were processed

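Heads of 200 males per library gave RNA that was read as single 30 bp reads after TruSeq RNA v2 preparation, in which strand is not kept. The authors aligned reads with BWA to BDGP 5, counted them per gene with HTSeq and divided by DESeq size factors (versions not given in the sources used here). The deposited table holds this scaled signal, a normalized count per gene and library. Multiplying by the size factor recovered from each library's steps gave whole reads (within 0.01) for 100% of 188184 values, so reads per library were known, 19275805 to 41393992 over the 12 libraries. The other deposited tables hold the authors' own comparisons (mean counts, fold changes and p-values) and were not used. Gene names came from identifiers, of which 15002 of 15682 had a symbol.

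Values were analysed as log2(normalized count + 1) with limma 3.58.1 in R 4.3.3, using an intensity trend, over 10530 genes with a mean of at least 10. Means of the 6 groups were fitted to all 12 libraries, and p-values were Benjamini-Hochberg adjusted over all genes tested. A call needed a 1.5-fold change or more and an adjusted p of 0.05 or less. The difference of the responses was the mutant minus the control log2 fold change. All printed adjusted p-values are from limma unless another tool is named. With 2 libraries against 2, an exact permutation test cannot go below p = 0.333, so none is given. Duplicates are described as biological, and no duplicate pair was identical. If they were drawn from one stock of flies, p-values measure only the spread between those pools. The alternatives were other pseudocounts, minimum means and scalings, only the libraries compared, a replicate block, thinning, leaving out each library, and edgeR 4.0.16 and DESeq2 1.42.0 on the recovered reads. The fits were tested on simulated data.

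Genes were named by rule: the 12 largest changes in each direction among called genes with a symbol and a mean of at least 50, up to 4 called members of each list with the largest changes, the 5 largest called differences between genotypes in each direction with the same minimum mean and no overlap between the mutant libraries at 0 h and 6 h, and a fixed set of stress and clock genes. Other genes were named after their values were seen. The libraries compared, the 32 gene lists and the 11 marker lists were chosen with earlier results of these data known. List names that matched no identifier were left out, among them *sima*, *Hph*, *PyK*, *Drs* and *hll*. Overlaps between genes are from the BDGP 6 annotation, used for this only.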

Additional observations from a re-analysis of the deposited data

Results flagged for a closer look

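The results below were picked out because the 6 h response differed between mutants and controls in the test of the difference, which called 862 genes. Values are the mutant minus the control log2 fold change, given for each gene named in the Results whose difference was called. Genes of the families under other observations are not included here. No explanation was tested for them.

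In the detoxification families the mutant change was the higher for *GstD5* (1.42), *GstD2* (0.92), *GstD4* (1.55), *GstD1* (0.99) and *GstE1* (2.26), for *Cyp4e3* (2.24), *Cyp309a1* (2.07), *Cyp6d2* (1.95) and *Cyp12d1-d* (1.25), and for *Ugt37A3* (1.56) and *Ugt49C1* (0.82). It was the lower for *Cyp4d21* (-1.94) and *Ugt50B3* (-1.46). Peroxide, glutathione and metal genes with a higher mutant change were *Irc* (0.77), *Gtpx* (0.90), *Prx6b* (0.93), *Prx6c* (0.73), *Gclc* (0.59), *Gclm* (1.16), *ref(2)P* (0.81) and *MtnA* (0.79). The pentose phosphate genes *Zw* (-0.91) and *Pgd* (-0.71) went lower in mutants.

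In protein turnover and translation control the differences were 0.67 for *Prosalpha6*, 0.61 for *Prosalpha3*, 0.64 for *Prosbeta7*, 1.27 for *l(2)efl* and -0.69 for *Hsp83*. They were 1.49 for *Thor*, 0.76 for *Xrp1*, 0.60 for *Ire1*, 0.59 for *Xbp1* and 0.60 for *PEK*. The tRNA synthetases *AspRS*, *AlaRS* and *AsnRS* had 1.48, 0.72 and 0.66. Among signalling and immune genes the mutant change was the higher for *Ets21C* (3.06), *Gadd45* (1.57), *cher* (1.26), *Dronc* (0.94), *upd2* (3.53), *Socs36E* (1.14), *PGRP-SA* (1.41) and *NimC1* (1.99). It was the lower for *TotX* (-1.23), *Drsl4* (-1.26) and *PGRP-SB1* (-2.29).

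Fuel genes with a higher mutant change were *Ldh* (1.14), *bmm* (0.71), *Lip4* (1.18), *Dgat2* (1.07), *Lsd-1* (1.73), *yip2* (0.92), *ImpL2* (1.04) and *Apoltp* (1.33). Those with a lower one were *Gpdh1* (-0.72), *mdy* (-1.61), *ACC* (-1.02), *bgm* (-2.05), *apolpp* (-1.35) and *sxe2* (-2.82). Clock and activity genes had 1.27 (*vri*), -0.63 (*Clk*), 1.62 (*to*) and 1.36 (*hry*). The opsin *Rh5* differed by -1.98, and it rose in controls by 2.57.

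Sensory and cuticle genes with a lower mutant change were *Obp83b* (-3.42), *a10* (-3.35), *Os-C* (-3.32), *lush* (-2.44), *Cpr56F* (-3.32), *Cpr76Bc* (-1.997) and *Acp1* (-2.61), and *Obp99b* had 1.29. Of the remaining genes, *Ama* (3.35), *Spn88Eb* (2.56), *Sid* (2.91), *CG33301* (2.84), *CG5697* (2.42), *CG16898* (1.32) and *CG4269* (0.80) went higher in mutants. *Acsx2* (-3.34), *CG15096* (-2.80), *CG2736* (-2.53), *CG13607* (-1.996), *dsb* (-1.92), *CG17108* (-1.34) and *CG34134* (-0.90) went lower.

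When each of the 12 libraries was left out in turn, 23 of these differences were not called in at least 1 of the fits. The limit on the adjusted p was no longer met for *CG16898*, *CG17108*, *CG4269*, *Clk*, *Cyp12d1-d*, *Dgat2*, *Drsl4*, *GstD2*, *GstD4*, *GstD5*, *Pgd*, *PGRP-SB1*, *Prx6b*, *Prx6c*, *to*, *TotX* and *Ugt37A3*. For *AsnRS*, *Gclc*, *Ire1*, *PEK*, *Prosalpha3* and *Xbp1* only the fold threshold was missed, at 0.52 to 0.58. Some calls were lost in many of the 12 fits: *CG4269* in 10, *PGRP-SB1* in 9, *Ugt37A3* in 7, and *GstD2* and *GstD4* in 6 each. Other settings with all 12 libraries kept also ended some of these calls. edgeR ended those of *CG4269*, *Gclc*, *GstD2*, *GstD5*, *Ire1*, *Ugt37A3* and *Xbp1*, and DESeq2 those of *CG4269*, *PGRP-SB1* and *Ugt37A3*. The adjusted p of *CG4269* was 0.35 with edgeR and 0.49 with DESeq2, and that of *GstD5* was 0.14 with edgeR. Thinning ended the calls of *CG4269*, *Dgat2*, *Drsl4*, *Ire1*, *Ugt37A3* and *upd2*, and median centring that of *Clk*.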

How the results depend on the processing

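The count of genes that rose in mutants was 734 to 852 when each of the 12 libraries was left out in turn and 760 to 874 under the other 11 alternatives, against 848. The count that fell was 454 to 554 and 486 to 618, against 547. edgeR called 845 and 573 and DESeq2 802 and 514 on the recovered reads. The difference between genotypes was called higher for 291 to 381 genes and lower for 366 to 503 when a library was left out, and for 352 to 442 and 447 to 532 under the others. In controls the genes that fell numbered 256 with median centring, against 168, and centring moved the median of all genes in mutants from -0.0066 to -0.057. Of the 140 named genes, 126 kept their direction and their call in mutants under all 23 alternatives, and 106 did so for the difference between genotypes, while none reversed. The calls that moved in mutants were those of *Pgd*, *Zw*, *Keap1*, *Sod3*, *Hsp27*, *Hsc70-3*, *p53*, *Drsl4*, *to*, *Rh5*, *Hml*, *eater*, *lush* and *Acsx2*. Apart from leaving out a library, reads thinned to the smallest library moved the calls of *Drsl4*, *Hsc70-3*, *Keap1* and *lush*, TMM scaling and median centring those of *p53* and *Rh5*, edgeR that of *Rh5* and DESeq2 those of *Rh5* and *eater*. Using only the libraries compared ended those of *eater* and *Drsl4*, and the last was also lost with no minimum mean, a pseudocount of 5 or the replicate block. Of the 64 counts of list members called higher or lower, 47 stayed within 1.5 times under all alternatives, and the others were counts of 3 or fewer, except that of the odorant-binding genes that fell (8, or 5 without the second mutant library at 6 h). Same-numbered mutant libraries at 0 h and 6 h showed no shared deviation from their group means (correlation 0.0073, controls -0.36). This does not tell whether the samples were collected as pairs. With the replicate block 850 genes rose and 545 fell. Depth differed between 0 h and 6 h, and with reads thinned to the smallest library 829 rose and 541 fell. Promoter motifs were not run, as no promoter sequences were used here.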

Other observations

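Several gene families outside the lists of the report changed in the mutants by 6 h. They were chosen after their values were seen, so they carry no test as families and are described by their counts, against 8.05% of all genes called higher and 5.19% lower. In controls these shares were 5.68% and 1.6%, and for the difference between genotypes 3.5% and 4.68%. All 5 *NimB* genes, secreted relatives of the phagocytosis receptors of hemocytes, rose, with a median log2 fold change of 1.25 against 0.41 in controls, where none was called. *NimB5* went from 123 and 176 to 530.5 and 500.4 normalized counts (1.80 ± 0.16, adjusted p = 3.7e-06) and *NimB3* from 19.4 and 24.5 to 69.1 and 59.9 normalized counts (1.52 ± 0.23, adjusted p = 0.0003). The difference between genotypes was called higher for 3 of the 5 *NimB* genes. It was called for *NimB5* (1.32, adjusted p = 0.0018) and not for *NimB3* (0.87, adjusted p = 0.10). Of 17 *CheA* and *CheB* genes, a family known from taste hairs, 8 rose, none fell and each log2 fold change was above 0 (median 1.23, controls 0.67). No difference between genotypes was called. The duplicates at 6 h differed, with summed counts of 1942 and 1383 in mutants (640 and 786 at 0 h). In controls the sums were 3996 and 2063 at 6 h, after 1890 and 1669 at 0 h. In the *Tsp42E* cluster of tetraspanins, which are membrane proteins, 7 of 17 rose, with *Tsp42Ed* going from 433 and 428 to 3837 and 3565 normalized counts (3.10 ± 0.10, adjusted p = 1.9e-09). In controls 5 of the 17 rose, *Tsp42Ed* by 1.66. The difference was called higher for 3 and lower for none, and was 1.44 for *Tsp42Ed* (adjusted p = 5.1e-05). Among 6 *Idgf* genes, which encode secreted chitinase-like growth factors, *Idgf1* rose from 379 and 477 to 4306 and 4103 normalized counts (3.30 ± 0.12, adjusted p = 5.5e-09), and *Idgf2* and *Idgf3* also rose (0.91 and 0.95). The same genes rose in controls (1.11 for *Idgf1*, 0.67 for *Idgf2* and 0.63 for *Idgf3*). Only the difference of *Idgf1* was called (2.19, adjusted p = 1.8e-05). Of 17 *Nepl* genes, neprilysin-like peptidases, 7 rose and 2 fell, with *Nepl4* going from 86.8 and 125 to 950.4 and 873 normalized counts (3.11 ± 0.15, adjusted p = 3.4e-08). In controls 4 of the 17 rose and 2 fell, and *Nepl4* rose by 1.37. The difference was called higher for 2 and lower for 2, and was 1.74 for *Nepl4* (adjusted p = 0.00028).

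Other families held genes that fell. Of 10 *alpha-Est* esterase genes 5 fell and none rose, and none was called in controls. Of 12 *Jhbp* genes, relatives of juvenile hormone binding proteins, 5 fell and 1 rose in mutants while 4 rose and none fell in controls. For 5 of them the difference was called lower, against 4.68% of all genes. The 13 protein genes of the mitochondrial genome were called lower in 10 of 13 cases in mutants and 11 in controls, with 1 higher in each. Among them the 7 genes for NADH dehydrogenase subunits had median log2 fold changes of -1.54 in mutants and -1.25 in controls, with no difference called. *mt:ND3* went from 2101 and 2741 to 458 and 530.4 normalized counts (-2.28 ± 0.22, adjusted p = 1e-05) in mutants and *mt:ND5* from 12059.8 and 16198 to 4195 and 4743 normalized counts (-1.65 ± 0.18, adjusted p = 2.5e-05). The 70 subunits encoded in the nucleus, by comparison, had a median of -0.14 in mutants with none called. Read depth fell between 0 h and 6 h in the same libraries, and its part in these values was not tested.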
